A study of Mus musculus with 48 samples.

Results

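The response of unpolarized p53 knockout macrophages to AP-3-84 was read from 6 of the 48 libraries of the series, all of bone marrow-derived macrophages, the 3 titled KO.M0.A and the 3 titled KO.M0.D. Bone marrow stem cells of C57BL/6 mice lacking p53 were cultured with M-CSF (10 ng/mL, 6 days), the growth factor that drives macrophage differentiation. They were given no polarizing cytokine (M0), and were exposed for 4 h to 10 µM AP-3-84, a compound named in the labels without a description, or to the same amount of its solvent DMSO (vehicle). The population is called KO_M0. Its nearest counterpart, WT_M0, came from wild-type mice and had the same culture, dose and exposure, also with 3 libraries in each arm. KO_M1, given for its levels, was p53 knockout cells polarized by LPS (100 ng/mL) together with IFN-γ (50 ng/mL) over another 24 h. WT_M1 was polarized like KO_M1 from wild-type cells, and WT_M2 and KO_M2 were given IL-4 and IL-13 (10 ng/mL of each) over 24 h, so that with 3 vehicle and 3 treated libraries in each of the 6 populations there are 36 bone marrow-derived libraries, 30 of them outside KO_M0. Titles, descriptions and the design separate KO from WT, while the genotype field reads wild-type for every bone marrow-derived library. Neither the deleted part of Trp53 nor the separateness of the 3 libraries of a group as cultures or animals is given. P-values therefore rest on the spread between libraries within groups, pooled over the 36 bone marrow-derived libraries, and this spread may be technical. RNA was read as counts of 3′ tags, which mark the end of a transcript, in libraries made with the QuantSeq FWD kit. All 11779 genes that passed the filter on low counts, of 51789 gene IDs, were described.

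An unpolarized macrophage holds receptors of the Toll-like family whose engagement frees NF-kB from its inhibitors and, through interferon regulatory factors, starts a wave of interferon-stimulated genes. Separate programmes answer proteotoxic stress (heat shock factor), electrophiles and oxidants (NRF2) and amino acid shortage or translation arrest (ATF4, the integrated stress response). The protein p53 restrains proliferation largely by inducing Cdkn1a, an inhibitor of cyclin-dependent kinases.

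Total counts were 3442607, 3081707 and 3469740 in vehicle replicates 1 to 3 and 4133693, 3921685 and 3460688 in treated replicates 1 to 3, and 13947 to 15032 genes had a count. Values per gene are CPM, a gene's counts relative to its library's total after TMM scaling. The 3 vehicle libraries resembled each other, with Pearson r of log2 CPM across genes of 0.958 to 0.964. The 3 treated libraries were spread, with r of 0.961 between replicates 1 and 2, 0.946 between 1 and 3 and 0.925 between 2 and 3, the last being the lowest within any of the 12 bone marrow-derived groups. Treated replicate 3 lay close to the vehicle libraries (r 0.942 to 0.955), replicate 1 farther (0.903 to 0.909) and replicate 2 farthest (0.873 to 0.877). These correlations run over genes that share a library and serve as a description.

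The vehicle libraries of KO_M0 stood apart from every other bone marrow-derived group. In 541 genes all 3 of them lay below, and in 667 genes above, the 30 libraries of the other 5 populations, 1208 genes in all. In the other 11 groups the same count was 75 to 357, and it was 166 in the treated libraries of KO_M0. Treated replicates 1, 2 and 3 correlated with the mean of the WT_M0 vehicle libraries at r of 0.933, 0.939 and 0.929, and the KO_M0 vehicle libraries at 0.902, 0.893 and 0.879. A difference between treated and vehicle libraries here is therefore measured against a vehicle group unlike the rest. What set it apart was not tested. The levels of other populations are given beside some of the genes this touches, and not beside every one. All 30 other libraries also lay above the KO_M0 vehicle libraries for Tnf (31.4 to 464 CPM), Mthfd2 (82.7 to 202), Hsp90aa1 (1155 to 4124) and Cd274 (17.8 to 355). They lay below them for Slc46a3 (1.27 to 14.3 CPM) and Frmd6 (2.88 to 14).

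**Figure D1:**
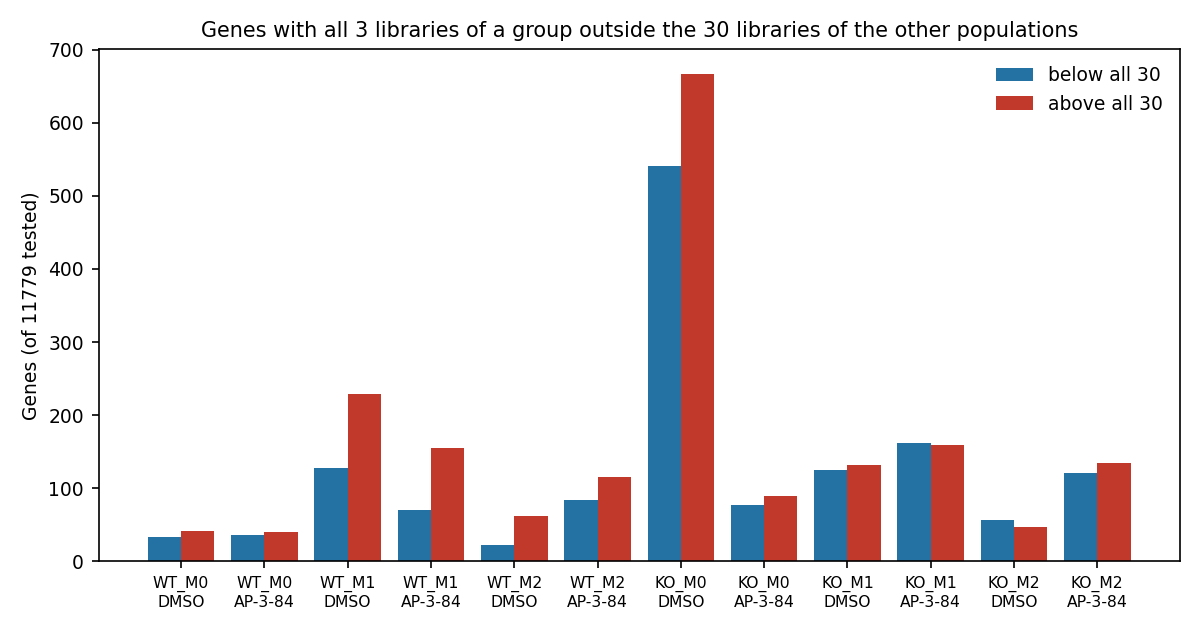
Number of tested genes (vertical axis, linear from 0) for which all 3 libraries of a group lay below (blue) or above (red) all 30 libraries of the other populations, for the 12 groups of bone marrow-derived cells. The KO_M0 vehicle group has 541 and 667 such genes, and no other group has more than 357 in both directions together.

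The targeted gene was read first. Trp53 (ENSMUSG00000059552, chromosome 11, 69580359 to 69591873 in GRCm38, GENCODE annotation) stood at 3.14, 3.39 and 6.49 CPM in vehicle and 4.8, 2.71 and 6.35 CPM in treated replicates 1 to 3, and at 13.2, 10.8 and 9.2 CPM in the WT_M0 vehicle libraries. A 3′ tag outside the deleted part would check nothing. Its target Cdkn1a stood at 34.1, 36.6 and 45.7 CPM in vehicle and 65.9, 100.4 and 102 CPM in treated replicates 1 to 3, against 1114, 865 and 803 CPM in WT_M0 vehicle, far above all 6 KO_M0 libraries. Cdkn1a rose with AP-3-84 (log2 change of 1.20 with SE 0.29, edgeR adjusted p 0.00367) and all 3 treated libraries lay above all 3 vehicle libraries. Of 25 tested p53 targets, 4 rose, 1 fell and 20 did not pass the test, and the called share was close to that of all genes. The others that rose were Sesn2 (log2 fold change 1.21), Tigar (1.40) and Aen (0.97), and Sesn1 fell (-1.05). Of these, Sesn2 is also a target of ATF4.

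Markers of macrophages were present and those of most other cells near 0. The summed level of 12 macrophage markers was 47600 to 54200 CPM in vehicle libraries and 46600, 25400 and 41500 CPM in treated replicates 1 to 3. Of the B cell markers, 6 of 8 had no count in any library, of those of T and NK cells 4 of 9, of mast cells and basophils 4 of 8, and of erythroid cells and megakaryocytes 6 of 7. The lists of T and NK cells, mast cells and erythroid cells each summed to at most 2.32 CPM, the B cell list to 21.3 to 34.4 CPM, all of it Ighm and Cd79b, the second of which rose (log2 fold change 2.19), and the dendritic cell list to at most 6.05 CPM. Summed neutrophil markers stood at 650 to 794 CPM in vehicle libraries and at 299, 319 and 553 CPM in treated replicates 1, 2 and 3. Summed stromal markers were 393 to 587 CPM in vehicle and 219, 104 and 427 CPM in treated replicates 1, 2 and 3. No single neutrophil or stromal marker passed the test, and their part in the results was not tested. In bulk RNA, fewer cells of a type and less RNA per cell cannot be told apart.

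AP-3-84 changed 2440 genes at an edgeR adjusted p under 0.05, which is 20.7% of those tested, with 1430 higher (12.1%) and 1010 lower (8.57%). They were sorted by how the single treated libraries behaved. A gene was placed in the class that moved in all 3 if every treated library lay on the same side of every vehicle library and the call held with each treated library left out in turn. By this rule 607 rises (5.15% of tested genes and 42.4% of rises) and 268 falls (2.28% of tested genes) moved in all 3 treated libraries. In 212 rises and 93 falls, treated replicate 3 lay inside the vehicle range or past it on the other side, so replicates 1 and 2, or mainly 1 of them, carried the call. This class of 305 genes held 76, 87 and 67 genes without vehicle replicates 1, 2 and 3, and 0 when only the 6 libraries were fitted. The other 611 rises and 649 falls were in neither class. Since the classes use the same values as the calls, their counts are descriptions.

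The shift of replicate 3 was smaller than that of the others. Among rises, the median shift from the vehicle mean, in log2(CPM + 0.5), was 1.06, 1.21 and 0.51 in replicates 1, 2 and 3, and among falls -1.19, -1.37 and -0.52. Replicate 3 had the smallest shift in 84.6% of rises and 87.2% of falls. All 3 treated libraries lay above all 3 vehicle libraries in 1195 of 1430 rises and below in 911 of 1010 falls, against 15.4% and 16.7% of all tested genes. Among the 607 rises that moved in all 3, the medians were 1.41, 1.53 and 0.74.

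**Figure D2:**
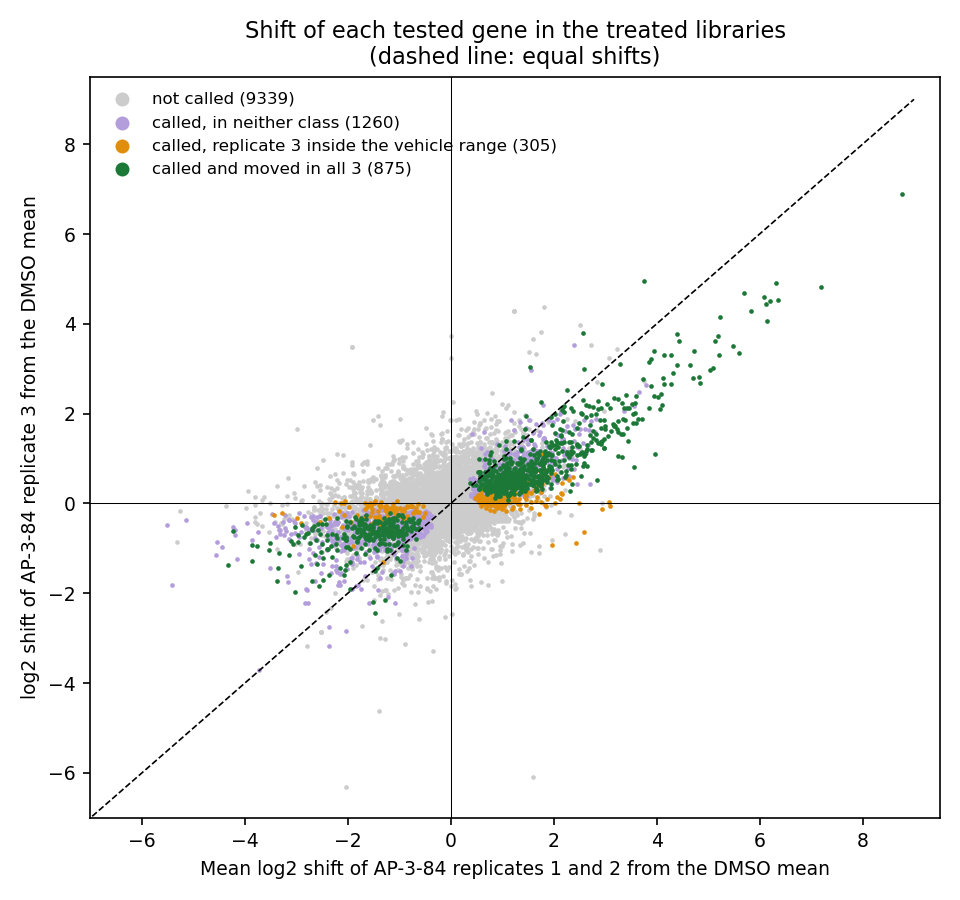
Shift from the vehicle mean in log2(CPM + 0.5) of each of the 11779 tested genes, with the mean of treated replicates 1 and 2 on the horizontal axis and treated replicate 3 on the vertical axis, coloured by class. Most called genes lie between the dashed line of equal shifts and the horizontal axis, so that replicate 3 moved the same way by less, and the orange genes (305) lie near 0 on the vertical axis.

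Each treated library was then held out and compared with genes called from the other 2, which keeps that library out of the choice although the vehicle libraries are shared. These counts are among the 11779 tested genes, whereas the left-out fits behind the counts of calls by library filtered genes anew. With replicate 3 held out, 1897 genes were higher, and replicate 3 lay above all 3 vehicle libraries in 70% of them, against 27.2% of all tested genes. Its median shift in these genes was 0.39, against 1.02 in the other 2 libraries. Of 1675 genes lower without it, it lay below the vehicle libraries in 66%, against 28.5% of all genes. With replicate 1 held out these shares were 95.8% of 943 rises and 97.7% of 389 falls, and with replicate 2 held out 98.8% of 747 and 97.9% of 326.

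The size of the count depended on single libraries and on the pooled estimate of spread. The count of calls was 1335 without treated replicate 1, 1074 without treated replicate 2 and 3597 without treated replicate 3, and that of falls was 1694 without treated replicate 3 and 669 and 625 without vehicle replicates 2 and 3. When only the 6 libraries were fitted, edgeR called 704 genes (502 higher, 202 lower), 97 of them in the class that moved in all 3. Without vehicle replicate 3 that class held 544 genes.

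Rises shared by all 3 treated libraries and named by the rule included receptors of the myeloid surface and a transporter. Cd300e (ENSMUSG00000048498, chromosome 11, 115051917 to 115062177), an activating receptor of monocytes, stood at 1.05, 0.616 and 0.271 CPM in vehicle and 83.9, 97.2 and 24.9 CPM in treated replicates 1 to 3. Replicates 1 and 2 were high and close together, replicate 3 was lower, and the groups did not overlap (log2 change of 6.65 with SE 0.52, edgeR adjusted p 2.16e-09). Marco (chromosome 1, 120474538 to 120505024), a scavenger receptor that binds bacteria, stood at 16.8, 17.6 and 14.3 CPM in vehicle and 2896, 2067 and 473 CPM in treated replicates 1 to 3 (log2 change of 6.80 with SE 0.82, edgeR adjusted p 3.74e-06), and Slc13a3 (chromosome 2, 165405028 to 165473230), a sodium-coupled transporter of dicarboxylates, at 4.72, 8.93 and 4.33 CPM in vehicle and 2233, 3259 and 737 CPM in treated replicates 1 to 3 (log2 change of 8.45 with SE 1.20, edgeR adjusted p 2.73e-05). In both, replicate 3 was the lowest treated library and lay far above every vehicle library. Fpr1, a receptor for formylated bacterial peptides, stood at 2.36, 3.08 and 2.16 CPM in vehicle and 264, 170.4 and 49.5 CPM in treated replicates 1 to 3. Siglece, an inhibitory receptor that binds sialic acid, stood at 0.524, 0.616 and 3.25 CPM in vehicle and 117, 122 and 36.5 CPM in treated replicates 1 to 3, and Slamf9, a receptor of the SLAM family, at 5.76, 5.54 and 2.43 CPM in vehicle and 315, 353 and 104 CPM in treated replicates 1 to 3. In each of these 3 genes replicate 3 was the lowest treated library and lay above the vehicle range. Their log2 fold changes were 5.99, 5.92 and 5.81 (edgeR adjusted p 2.32e-05, 3.91e-08 and 4.41e-08).

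For 3 further genes the vehicle libraries held almost no counts. Raver2, which encodes an RNA-binding protein, had 0 counts in the 3 vehicle libraries and 347 in the treated ones (20.2, 55 and 11.7 CPM), at least 106-fold higher when the vehicle group is set to 3 counts in all. Cd55, the complement decay-accelerating factor, had 1 count against 453, a ratio of 414 with an exact 95% interval of 73.9 to 16392 for counting error only. Zfp811, a zinc finger gene, had 1 against 301, a ratio of 275 with an interval of 49 to 10904. Bcl2a1a, an anti-apoptotic member of the BCL2 family with near-identical copies, stood at 0.524, 2.46 and 0.271 CPM in vehicle and 42.7, 57 and 23 CPM in treated replicates 1 to 3 (log2 change of 5.27 with SE 0.52, edgeR adjusted p 5.08e-08), and reads of its copies Bcl2a1b (1.05) and Bcl2a1d (2.08) may be split among the 3 genes.

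Several of these rises started from vehicle levels below those of other populations. Marco stood at 1171, 1963 and 2070 CPM in WT_M0 vehicle libraries and at 45.6 to 5539 CPM over the 30 libraries of other populations, above all 3 KO_M0 vehicle libraries in each. The vehicle libraries of KO_M0 were also below all 30 for Fpr1 (5.04 to 598 CPM in the others), Slamf9 (12.6 to 259.7), Acod1 (64.3 to 1582), Bcl2a1a (3.58 to 119) and Cdkn1a (55.5 to 1119). Of the 607 rises that moved in all 3, vehicle libraries lay below all 30 in 203 (33.4%), and the treated libraries lay within the range of the 30 in 323 (53.2%). In 26 of the 1430 rises, all 3 treated libraries lay above all 30. They included the hypoxia- and stress-inducible Ndrg1 (414, 700.3 and 213 CPM treated, 10.4 to 169 in the 30), the secreted fibrinogen-like protein gene Fgl2 (264, 296 and 97.2 treated, 10.3 to 79.9) and Cd5l, a secreted macrophage protein (136, 383 and 102 treated, 1.9 to 81.5). Fgl2 was chosen after its values were seen.

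**Figure D3:**
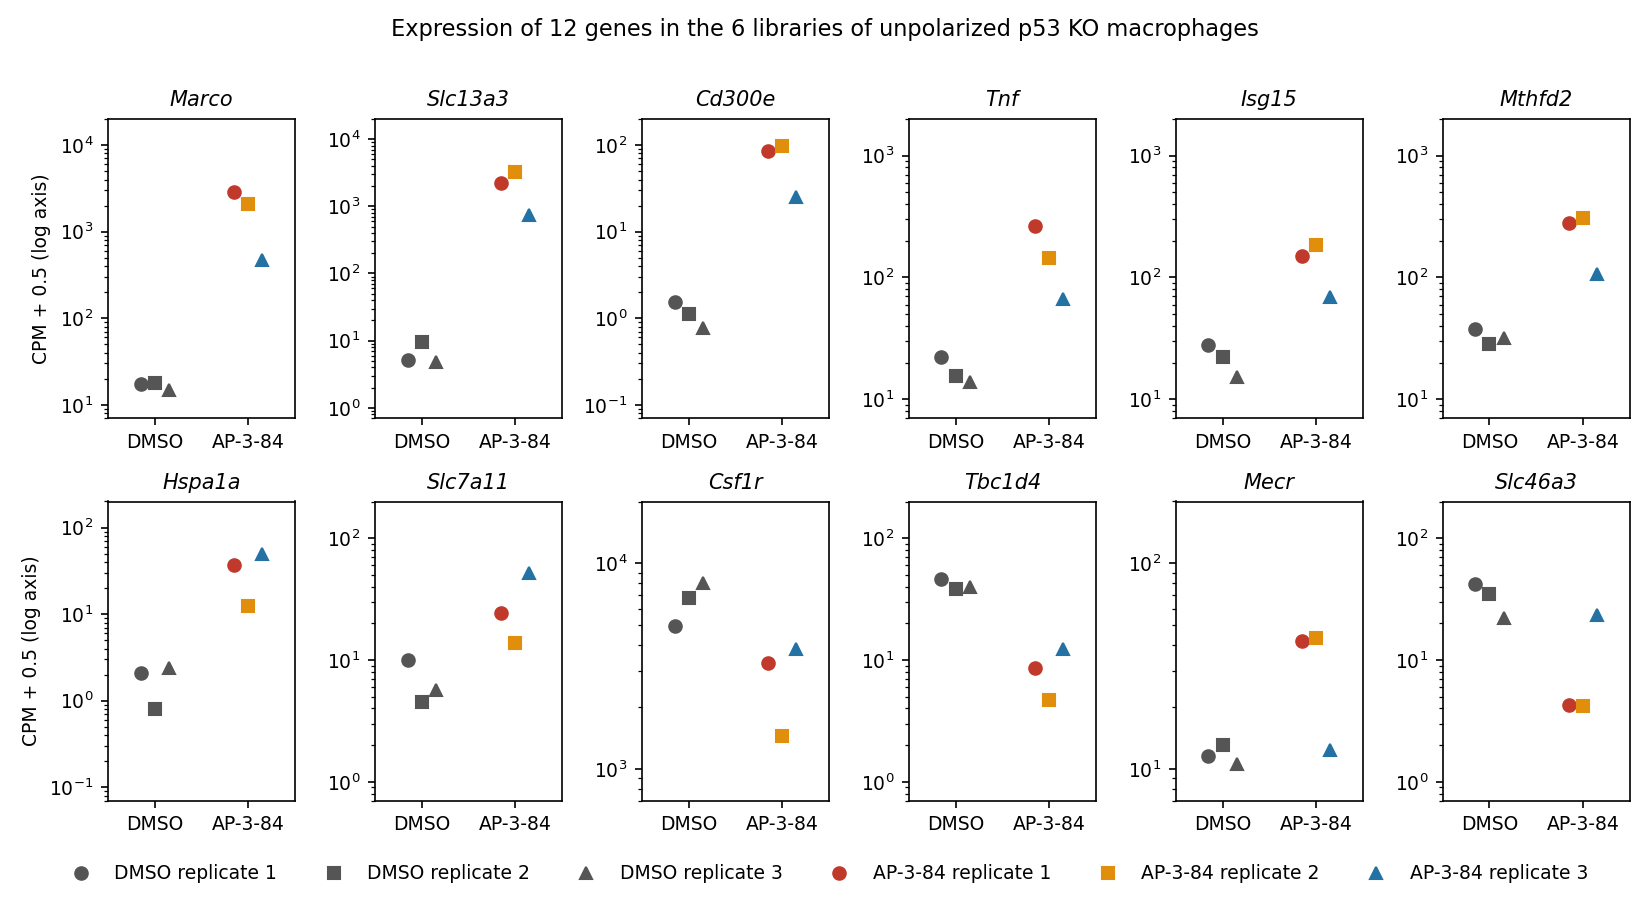
CPM + 0.5 (log axis) of 12 genes in the 3 vehicle libraries (grey) and the 3 AP-3-84 libraries (red circle, orange square and blue triangle for replicates 1, 2 and 3) of KO_M0. Replicate 3 lies between the vehicle libraries and the other 2 treated ones for Marco, Slc13a3, Cd300e, Tnf, Isg15, Mthfd2, Csf1r and Tbc1d4, above the others for Hspa1a and Slc7a11, and inside the vehicle range for Mecr and Slc46a3.

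Falls shared by all 3 treated libraries were smaller than these rises. Tbc1d4, a Rab GTPase-activating protein of insulin-stimulated glucose transport, stood at 45.3, 37.5 and 39.2 CPM in vehicle and 8.08, 4.19 and 11.9 CPM in treated replicates 1 to 3 (log2 change of -2.34 with SE 0.33, edgeR adjusted p 8.1e-06). Engase, a cytosolic enzyme that releases N-glycans, stood at 41.4, 38.8 and 40.3 CPM in vehicle and 5.05, 7.65 and 15.3 CPM in treated replicates 1 to 3 (log2 change of -2.10 with SE 0.38, edgeR adjusted p 0.000171), and Calcoco1, an autophagy receptor, at 37.2, 56.6 and 64.9 CPM in vehicle and 4.29, 9.62 and 19.3 CPM in treated replicates 1 to 3 (log2 change of -2.26 with SE 0.42, edgeR adjusted p 0.00032). In these genes replicate 3 kept the highest level of the treated libraries and still lay below every vehicle library. The rule also named Dbp, a transcription factor of the circadian output, the histone methyltransferase gene Kmt5c, the orphan receptor gene Gpr162, Kctd12b and Zer1, which fell by 1.58 to 2.52 on the log2 scale. Vehicle libraries of KO_M0 were above all 30 other libraries for Tbc1d4 (3.6 to 18.7 CPM in the others), Engase (1.95 to 9.55), Calcoco1 (4.26 to 18.1), Dbp (1.01 to 15), Gpr162 (0.278 to 15.2) and Kmt5c (2.75 to 14.8). This held for 107 of the 268 falls that moved in all 3 (39.9%).

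Genes carried by replicates 1 and 2, or mainly by 1 of them, had treated replicate 3 at vehicle level. Mecr, a reductase of mitochondrial fatty acid synthesis, stood at 11, 12.6 and 10 CPM in vehicle and 41.2, 42.9 and 11.9 CPM in treated replicates 1 to 3 (log2 change of 1.52 with SE 0.32, edgeR adjusted p 0.000991), so that only the first 2 treated libraries were high. Amd1, the decarboxylase of polyamine synthesis, stood at 69.4, 65.3 and 91.2 CPM in vehicle and 335, 331 and 86.3 CPM in treated replicates 1 to 3 (log2 change of 1.74 with SE 0.43, edgeR adjusted p 0.00499), with the same split, and its reads may be shared with the close copy Amd2. Melk and Wee1, kinases of the mitotic entry, Spc24 of the kinetochore and Rmi2 of the double Holliday junction complex were highest in replicate 2, with replicate 1 between it and the vehicle libraries, as in Rmi2 with 4.55, 19.2 and 2.38 CPM against 1.05, 0.923 and 2.71 CPM in vehicle. Without treated replicate 2, the edgeR adjusted p of Melk, Wee1, Spc24 and Rmi2 was 0.236, 0.114, 0.382 and 0.246. Without treated replicate 1 it was 0.0122, 0.0203, 0.0183 and 0.00448, so these calls rested on replicate 2. The adhesion molecule Pecam1 was also highest in replicate 2, at 20.5, 33.8 and 6.62 CPM against 4.46, 6.77 and 5.68 CPM. Among falls, Slc46a3, a lysosomal transporter, stood at 41.4, 34.2 and 21.6 CPM in vehicle and 3.79, 3.7 and 23 CPM in treated replicates 1 to 3 (log2 change of -1.68 with SE 0.46, edgeR adjusted p 0.00979), and Emp1, a tetraspan membrane protein, at 151, 132 and 84.9 CPM in vehicle and 17.4, 7.89 and 102 CPM in treated replicates 1 to 3 (log2 change of -1.53 with SE 0.50, edgeR adjusted p 0.0299). In both, replicate 3 lay inside the vehicle range while replicates 1 and 2 were several-fold below it. Cnr2, the cannabinoid receptor of immune cells, Frmd6, Mob3b and the decoy TRAIL receptor gene Tnfrsf23 fell by 1.24 to 1.52 on the log2 scale with the same pattern. The call of Mecr held with each library left out and was lost when only the 6 libraries were fitted (edgeR adjusted p 0.071), while those of Slc46a3, Emp1, Amd1 and Rmi2 were lost in 1 or more alternatives (highest edgeR adjusted p 0.184, 0.341, 0.0729 and 0.246). The calls of the other genes named here were each lost in 1 or more alternatives too. Pecam1 lost its call in 6 of 14 and Spc24 in 4 of 14 (highest edgeR adjusted p 0.208 and 0.382).

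Most genes of the heat shock list rose, with different libraries leading. In the heat shock list 11 of 18 tested genes rose (61.1%, against 12.1% of all tested genes), 7 of them in all 3 libraries, and none fell. Without treated replicate 2, 7 rose, and without treated replicate 3, 11 rose and 1 fell. Hspa1a (chromosome 17, 34969190 to 34972156), an inducible chaperone, stood at 1.57, 0.308 and 1.89 CPM in vehicle and 36.9, 11.8 and 48.7 CPM in treated replicates 1 to 3 (log2 change of 4.61 with SE 0.57, edgeR adjusted p 2.23e-06), and its near-identical neighbour Hspa1b at 1.57, 1.54 and 0.271 CPM in vehicle and 9.85, 6.91 and 20.1 CPM in treated replicates 1 to 3, so their separate values are uncertain. For both, replicate 3 was the highest treated library and replicate 2 the lowest. Hsp90aa1 stood at 855, 826 and 836 CPM in vehicle and 1883, 2548 and 1584 CPM in treated replicates 1 to 3 (log2 change of 1.26 with SE 0.25, edgeR adjusted p 0.000558), with replicate 2 highest and replicate 3 lowest. The co-chaperone Ahsa1 (1.13), the mitochondrial chaperonin Hspd1 (0.97) and the constitutive chaperones Hspa8 (0.61) and Hsp90ab1 (0.66) rose, while Dnajb1 (0.18), Hsph1 (0.16) and Bag3 (0.11), co-chaperones and a nucleotide exchange factor that heat shock factor induces, did not pass the test. Hspb1 went the other way without passing the test, at 27.8, 45.6 and 48.4 CPM in vehicle and 24.5, 8.88 and 38.4 CPM in treated replicates 1 to 3. The list's median log2 fold change was 0.61, against -0.03 over all genes.

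NRF2 targets were led by replicate 3. Of 23 tested, 6 rose and none fell. This share of 26.1% stood against 12.1% of all genes called higher and 20.7% called in either direction. The number that rose was 3, 7 and 4 without treated replicates 1, 2 and 3, and the number that fell was 0, 0 and 4. Replicate 3 was the highest treated library in 20 of 23. That count was also 20 of 26 for lysosome and autophagy genes, whose median shift was -0.61, -0.72 and -0.25, and 0 of 30 for cell cycle genes. Its share over all tested genes is not given here. The median shift of the NRF2 list was 0.31, -0.11 and 0.57 in replicates 1, 2 and 3. Slc7a11, the cystine transporter that feeds glutathione synthesis, stood at 9.43, 4 and 5.14 CPM in vehicle and 23.8, 13.3 and 51.1 CPM in treated replicates 1 to 3 (log2 change of 2.22 with SE 0.55, edgeR adjusted p 0.00541). Srxn1, which repairs oxidized peroxiredoxins, stood at 106, 132 and 133 CPM in vehicle and 226, 119.9 and 361 CPM in treated replicates 1 to 3 (log2 change of 0.93 with SE 0.30, edgeR adjusted p 0.0275), so that replicate 2 lay inside the vehicle range. Of 14 alternatives, 8 ended the call of Srxn1, with an edgeR adjusted p of up to 0.23, among them those without any 1 of the vehicle libraries and without treated replicate 1 or 3. Hmox1, heme oxygenase, stood at 97, 132 and 133 CPM in vehicle and 168, 132 and 241 CPM in treated replicates 1 to 3 and did not pass the test (log2 change of 0.58 with SE 0.30, edgeR adjusted p 0.177). Txnrd1, thioredoxin reductase (265, 159 and 325 CPM treated against 131, 139 and 142), had the same order, highest in replicate 3 and lowest in replicate 2. Vehicle levels of Slc7a11 were below all 30 libraries of other populations (27.3 to 359 CPM).

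The integrated stress response had 17 of 24 tested genes higher (70.8%, against 12.1% of all tested genes) and none lower. Of the 17, 13 moved in all 3 libraries (against 5.15%), and the list's median log2 fold change was 1.16. Asns, asparagine synthetase, stood at 12.3, 9.54 and 15.7 CPM in vehicle and 67.2, 103 and 42.4 CPM in treated replicates 1 to 3 (log2 change of 2.50 with SE 0.36, edgeR adjusted p 1.83e-05), and Mthfd2 of mitochondrial folate metabolism at 37.2, 28 and 31.6 CPM in vehicle and 279.7, 309 and 106 CPM in treated replicates 1 to 3 (log2 change of 2.84 with SE 0.27, edgeR adjusted p 3.37e-08). Trib3, a pseudokinase induced by ATF4, stood at 2.36, 3.39 and 2.16 CPM in vehicle and 10.6, 39.2 and 13.2 CPM in treated replicates 1 to 3 (log2 change of 3.00 with SE 0.61, edgeR adjusted p 0.000938). Treated libraries lay above vehicle libraries throughout, with replicate 2 highest in all 3 genes. Atf4 itself rose (1.04), as did Chac1 (3.39), Ddit3 (1.07), Gdf15 (1.38) and the tRNA synthetase genes Aars (1.43), Wars (1.03) and Sars (0.94). Atf3 (0.39), Ddit4 (0.39) and Ppp1r15a (0.06) did not pass the test. Of 22 genes of the unfolded protein response, 5 rose (22.7%), against 12.1% of all genes called higher and 20.7% called in either direction. The number was 1, 3 and 8 without treated replicates 1, 2 and 3. Herpud1 (1.30) led, and the chaperone gene Hspa5 (0.39) rose with replicate 3 inside the vehicle range. Xbp1 (0.18) and Dnajb9 (0.49) did not pass the test.

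To set sequence beside these programmes, 300-base windows around RefSeq start sites (GRCm38.p6, 250 bases before to 50 after) were searched on both strands for a C/EBP-ATF site (TGATGNAA), a heat shock element (GAANNTTCNNGAA), an interferon-stimulated response element (GAAANNGAAA) and an NF-kB site (GGGANTTTCC). A window was found for 8915 of 11779 tested genes, 11395 windows in all. The C/EBP-ATF letters were in 8 of 24 windows of the integrated stress response list (33.3%) and 2.3% of all windows, and the heat shock letters in 5 of 19 windows of the heat shock list (26.3%) and 0.509% of all. The 5 are not separate stretches. They are the window of Chordc1, the overlapping windows of Hspd1 and Hspe1, and overlapping windows of Hsph1 that share a match. Hsph1 did not pass the test. Windows of 3 members that rose are shown with the matched letters in capitals, since Asns and Slc7a11 share a motif and differ in which treated library was highest. The Slc7a11 window holds 2 matches, 1 on each strand. The window of Hspe1, which rose (0.71) and is transcribed away from its neighbour Hspd1, has 2 overlapping matches.
Asns chr6:7693160-7693459 (- strand): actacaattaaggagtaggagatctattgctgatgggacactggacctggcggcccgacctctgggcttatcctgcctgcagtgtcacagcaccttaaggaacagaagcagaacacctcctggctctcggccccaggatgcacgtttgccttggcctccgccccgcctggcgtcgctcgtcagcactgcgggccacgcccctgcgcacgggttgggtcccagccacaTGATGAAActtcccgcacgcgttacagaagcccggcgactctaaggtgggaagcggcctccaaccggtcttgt
Slc7a11 chr3:50443564-50443863 (- strand): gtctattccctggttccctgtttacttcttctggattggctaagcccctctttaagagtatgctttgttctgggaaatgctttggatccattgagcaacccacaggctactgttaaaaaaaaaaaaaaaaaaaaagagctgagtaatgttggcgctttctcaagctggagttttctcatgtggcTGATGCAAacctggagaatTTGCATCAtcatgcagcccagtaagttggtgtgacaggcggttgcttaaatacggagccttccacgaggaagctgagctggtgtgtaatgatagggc
Hspe1 chr1:55087898-55088197 (+ strand): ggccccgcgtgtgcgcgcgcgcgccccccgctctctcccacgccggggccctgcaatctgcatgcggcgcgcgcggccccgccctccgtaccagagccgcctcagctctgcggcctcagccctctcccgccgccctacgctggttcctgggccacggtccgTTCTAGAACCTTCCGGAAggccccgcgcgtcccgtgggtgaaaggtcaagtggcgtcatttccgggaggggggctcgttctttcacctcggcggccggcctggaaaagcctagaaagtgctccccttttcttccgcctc

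The NF-kB genes that rose were inhibitors and feedback genes. Of 16 tested, 6 rose (37.5%, against 12.1% of all tested genes), 4 of them in all 3 libraries (against 5.15%), and none fell. Without treated replicate 3, 7 rose and 1 fell. Nfkbiz, an atypical inhibitor of nuclear NF-kB, stood at 13.6, 9.23 and 11.9 CPM in vehicle and 368, 260.2 and 81.8 CPM in treated replicates 1 to 3 (log2 change of 4.34 with SE 0.43, edgeR adjusted p 7.61e-08). Nfkbia, the classical inhibitor, stood at 558, 560.2 and 531 CPM in vehicle and 2281, 1379 and 841 CPM in treated replicates 1 to 3 (log2 change of 1.45 with SE 0.24, edgeR adjusted p 9.52e-05), and Bcl3 at 14.2, 14.2 and 15.4 CPM in vehicle and 56.3, 48.8 and 30.4 CPM in treated replicates 1 to 3 (log2 change of 1.63 with SE 0.25, edgeR adjusted p 1.97e-05). The treated libraries lay above all vehicle libraries in these genes and were ordered replicate 1, 2, 3 from high to low. Tnip1 (1.42), Tnip3 (1.08) and Traf1 (1.32) rose, while the subunit genes Nfkb1 (0.54), Nfkb2 (0.44), Rel (0.04), Rela (-0.23) and Relb (0.09) and the deubiquitinase gene Tnfaip3 (0.40) did not pass the test. The NF-kB letters were in 3 of 16 windows of this list (18.8%) and 0.5% of all windows. The window of Nfkbia is shown as that of a member described.
Nfkbia chr12:55492598-55492897 (- strand): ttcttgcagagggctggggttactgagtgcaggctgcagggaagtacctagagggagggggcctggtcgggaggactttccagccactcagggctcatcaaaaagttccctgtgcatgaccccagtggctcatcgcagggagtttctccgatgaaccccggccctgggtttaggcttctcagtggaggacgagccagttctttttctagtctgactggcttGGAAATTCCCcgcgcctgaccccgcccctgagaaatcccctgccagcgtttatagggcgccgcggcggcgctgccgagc

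Of 16 tested inflammatory cytokine genes, 4 rose and none fell. This called share of 25% stood against 12.1% of all genes called higher and 20.7% called in either direction. Without treated replicate 3, 5 rose and 2 fell. Tnf stood at 21.8, 15.1 and 13.2 CPM in vehicle and 266, 144 and 66.5 CPM in treated replicates 1 to 3 (log2 change of 3.25 with SE 0.43, edgeR adjusted p 9.84e-06), without overlap. Il1b stood at 18.1, 22.5 and 19.7 CPM in vehicle and 214, 83.6 and 27.3 CPM in treated replicates 1 to 3 (log2 change of 2.43 with SE 0.71, edgeR adjusted p 0.0167), with replicate 1 far above the others and replicate 3 just above the vehicle range. Its call was lost in 5 of 14 alternatives, among them without treated replicate 1 and with only the 6 libraries fitted (highest edgeR adjusted p 0.185). The anti-inflammatory Il10 (2.88, 4 and 1.08 CPM in vehicle and 32.1, 25.9 and 7.94 CPM in treated replicates 1 to 3, log2 fold change 3.05) and Ebi3, a subunit of IL-27 and IL-35 (1.89), rose in all 3. Of 20 chemokine genes, with the same called share of 25%, Ccl3 (2.36), Ccl4 (3.15) and Cxcl10 (3.20) rose in all 3, and Ccl6 (-1.37) and Pf4 (-1.45) fell. Cxcl10 stood at 3.14, 2.77 and 2.16 CPM in vehicle and 35.4, 28.4 and 11.1 CPM in treated replicates 1 to 3. Ccl2 (3.33), Ccl7 (2.95) and Cxcl9 (2.68) did not pass the test. The AP-1 and immediate early list had 1 of 18 genes higher, Klf6 (0.63), a share below the 20.7% of all genes.

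Of 25 tested effector and metabolic genes of classical activation, 11 rose (44%, against 12.1% of all tested genes) and none fell. Of the 11, 10 rose in all 3 (against 5.15%). Without treated replicate 3, 11 rose and 2 fell. The median of this list stood 1.83, 1.35 and 0.807 above the KO_M0 vehicle mean in treated replicates 1, 2 and 3. In the unpolarized WT_M0 vehicle libraries it stood 1.05, 2.35 and 1.83 above that mean, so the treated level was not beyond that of unpolarized WT cells. This list holds Marco, Slc13a3 and Fpr1. Acod1, which makes itaconate, stood at 8.38, 5.54 and 7.03 CPM in vehicle and 147, 140.4 and 46.1 CPM in treated replicates 1 to 3 (log2 change of 3.98 with SE 0.67, edgeR adjusted p 0.00018). Sod2, the mitochondrial superoxide dismutase, stood at 118, 115 and 101 CPM in vehicle and 613, 513 and 201 CPM in treated replicates 1 to 3 (log2 change of 1.99 with SE 0.35, edgeR adjusted p 0.000266), and Gch1, which makes the cofactor of nitric oxide synthase, at 11, 17.2 and 16.5 CPM in vehicle and 61.1, 74.5 and 46.9 CPM in treated replicates 1 to 3 (log2 change of 2.03 with SE 0.21, edgeR adjusted p 3.91e-08). Inducible nitric oxide synthase itself, Nos2, had 3 counts over the treated libraries and 0 over the vehicle ones, at or under the floor, so no fold is given. Saa3, an acute phase protein (4.39), Fpr2 (5.36) and Cp, ceruloplasmin (4.31), rose in all 3, while Ptgs2 (0.89) and Cybb (-0.17) did not pass the test. Cd274 (PD-L1) stood at 11.8, 12.6 and 13 CPM in vehicle and 66.9, 74.2 and 32 CPM in treated replicates 1 to 3 (log2 change of 2.21 with SE 0.36, edgeR adjusted p 8.1e-05), and Cd40 (1.58), Icam1 (1.17) and Cd69 (3.83) rose, whereas the costimulatory ligands Cd80 (-0.48) and Cd86 (-0.44) did not pass the test. Of 15 genes of the SOCS family and cytokine feedback, 4 rose, 1 fell and 10 did not pass the test. The called share was 33.3%, against 20.7% of all tested genes, and the median log2 fold change was -0.19. Socs3 (2.58), Socs1 (2.77), Dusp2 (1.67) and Dusp16 (1.61) rose, Socs6 (-1.14) fell, and Cish (-1.02) and Dusp1 (0.85) did not pass the test. Irak3, an inhibitor of Toll-like receptor signalling, rose (2.24).

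Interferon-stimulated genes rose with the first 2 libraries foremost. Of 35 tested, 23 rose (65.7%, against 12.1% of all tested genes), 9 of them in all 3 (against 5.15%), and none fell. The median shift was 1.88, 1.99 and 0.69 in replicates 1, 2 and 3. Isg15 (chromosome 4, 156199424 to 156200818), a ubiquitin-like modifier, stood at 27.2, 21.6 and 14.6 CPM in vehicle and 149, 185 and 69.1 CPM in treated replicates 1 to 3 (log2 change of 2.67 with SE 0.67, edgeR adjusted p 0.0063). Ifit1, which binds foreign RNA caps, stood at 25.4, 16.3 and 10.6 CPM in vehicle and 135, 117 and 43.1 CPM in treated replicates 1 to 3 (log2 change of 2.49 with SE 0.69, edgeR adjusted p 0.0116), and Mx1, an antiviral GTPase, at 3.14, 3.69 and 4.33 CPM in vehicle and 32.1, 48.6 and 14.6 CPM in treated replicates 1 to 3 (log2 change of 3.08 with SE 0.47, edgeR adjusted p 2.33e-05). Replicate 3 was the lowest treated library in each and remained above the vehicle range. Usp18 (3.29), Oasl1 (3.33) and Irf7 (2.37) rose, Stat2 rose with replicate 3 inside the vehicle range (83.6, 80.9 and 40 CPM against 31.7, 30.8 and 40.8), and Rsad2 (2.19), Oas3 (1.34) and Cmpk2 (1.62) did not pass the test. Ifit3 and Ifit3b, and members of the Oas and Phf11 families, are close copies whose counts may be split. Without treated replicates 1, 2 and 3, the number of list members called higher was 15, 10 and 28. The interferon gene Ifnb1 had 0 counts in vehicle and 1 in treated libraries and was not tested.

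The letters of the interferon response element were present in 16 of 29 windows of this list (55.2%) and in 3.38% of all windows. Windows of Isg15, with 3 overlapping matches, and Ifit1, with 2 apart, are shown as those of the members described.
Isg15 chr4:156200769-156201068 (- strand): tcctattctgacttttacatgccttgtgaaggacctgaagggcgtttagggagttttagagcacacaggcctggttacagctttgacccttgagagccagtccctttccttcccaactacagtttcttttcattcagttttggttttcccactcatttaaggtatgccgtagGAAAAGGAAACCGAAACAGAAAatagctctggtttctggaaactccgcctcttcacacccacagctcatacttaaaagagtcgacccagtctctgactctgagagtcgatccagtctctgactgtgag
Ifit1 chr19:34640639-34640938 (+ strand): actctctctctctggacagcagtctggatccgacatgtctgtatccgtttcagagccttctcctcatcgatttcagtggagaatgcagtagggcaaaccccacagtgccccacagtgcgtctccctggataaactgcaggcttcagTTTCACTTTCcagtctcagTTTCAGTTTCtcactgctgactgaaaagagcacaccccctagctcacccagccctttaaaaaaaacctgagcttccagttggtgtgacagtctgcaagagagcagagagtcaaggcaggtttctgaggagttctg
The share of windows with these letters was 3.86% among rises that moved in all 3 and 3.88% among those with replicate 3 inside the vehicle range, both near that of all genes. The C/EBP-ATF letters were in 4.82% and 1.46% of the windows of these classes. A match is a run of letters and not a site of binding.

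Genes that IFN-γ induces were read next. Of 15 inducible GTPase genes tested, 6 rose (40%, against 12.1% of all tested genes), 0 of them in all 3 (against 5.15%), and the number that rose was 2, 1 and 7 without treated replicates 1, 2 and 3. They included Iigp1 (2.16, edgeR adjusted p 0.0266) and Gbp6 (2.52, 0.0151). Gbp2 (1.09), Gbp5 (-0.24) and Irgm1 (0.91) did not pass the test. Of 20 genes of MHC class I and the immunoproteasome, 6 rose (30%, against 12.1% of all tested genes, and 3 without treated replicate 2). Psmb8 (0.93), Psmb9 (0.86) and Psme2 (1.21) rose in all 3, while H2-K1 (0.36), H2-D1 (-0.04) and B2m (0.39) did not pass the test. Of 10 MHC class II genes and regulators, H2-DMa alone was called (10%, against 20.7% of all tested genes). It fell (log2 change of -1.64 with SE 0.44, edgeR adjusted p 0.00991). The transactivator Ciita had a log2 fold change of -2.27 and Cd74 of -1.11, neither past the test.

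**Figure D4:**
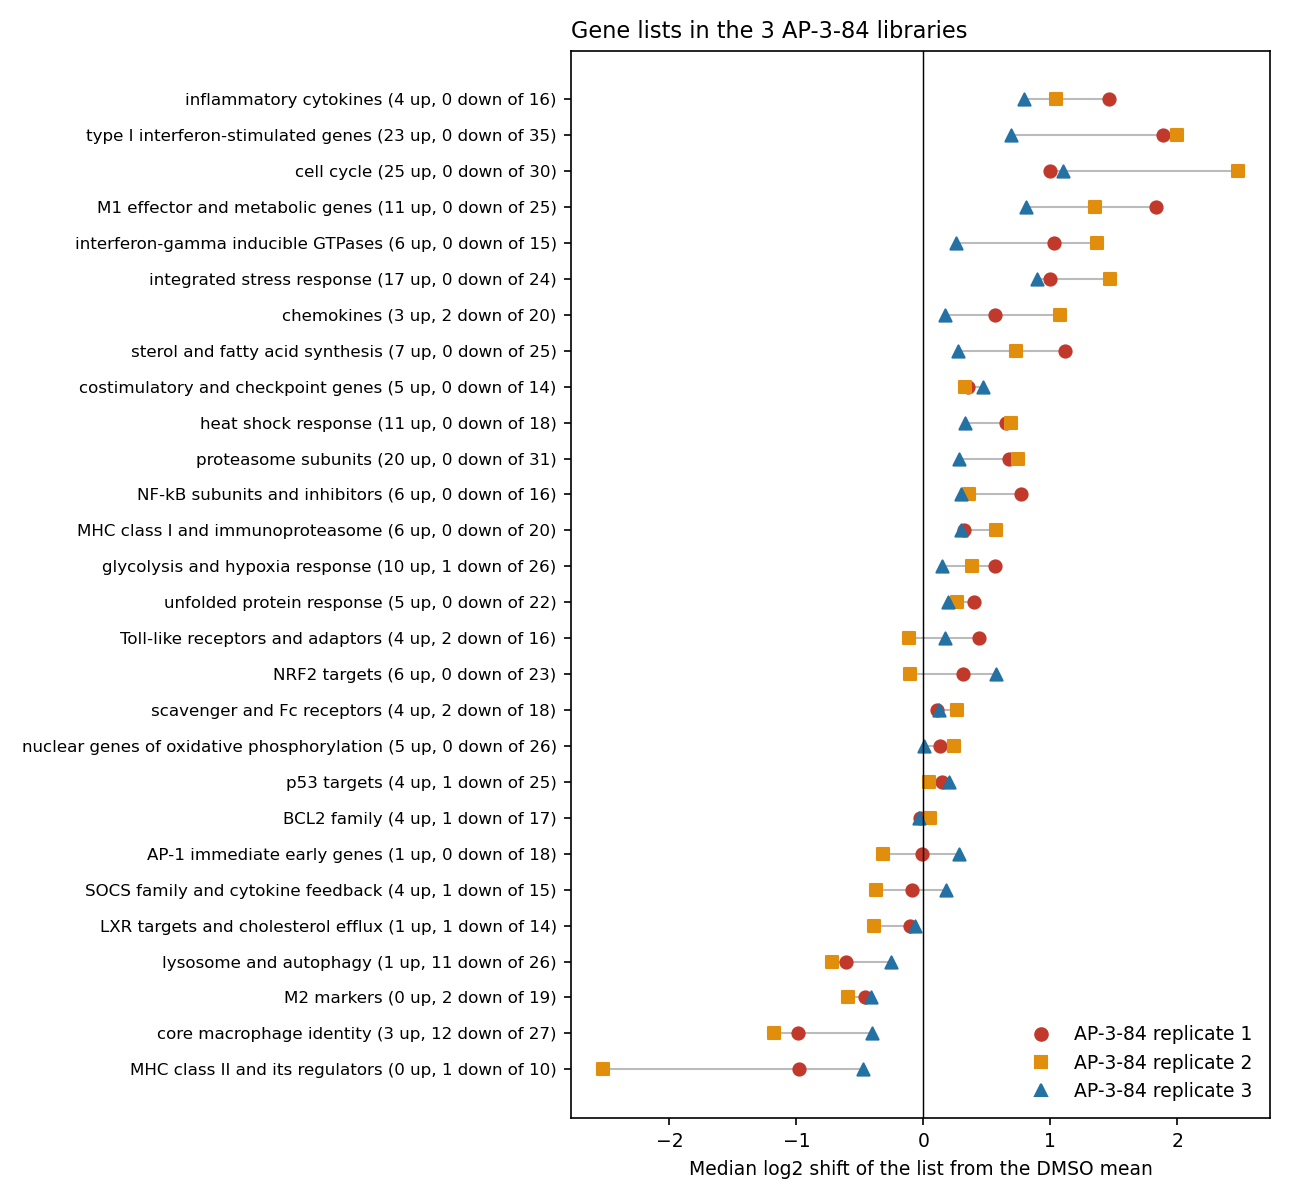
Median shift from the vehicle mean in log2(CPM + 0.5) of the tested genes of 28 lists in treated replicates 1 (red circle), 2 (orange square) and 3 (blue triangle), with the number of members called higher and lower beside each name. Replicate 3 is nearest to 0 for the interferon-stimulated genes (0.69) and farthest to the right for NRF2 targets (0.57), and replicate 2 is farthest for the cell cycle (2.48).

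Macrophage identity genes were called in both directions, with 12 of 27 lower (against 8.57% of all tested genes) and 3 higher. Those lower numbered 7, 7 and 13 without treated replicates 1, 2 and 3. Csf1r, the M-CSF receptor, stood at 4947, 6812 and 8054 CPM in vehicle and 3268, 1452 and 3810 CPM in treated replicates 1 to 3 (log2 change of -1.22 with SE 0.29, edgeR adjusted p 0.00397), lower in every treated library and lowest in replicate 2. Mertk, a receptor for apoptotic cells, stood at 257, 309 and 337 CPM in vehicle and 60.6, 44.4 and 141 CPM in treated replicates 1 to 3 (log2 change of -1.88 with SE 0.39, edgeR adjusted p 0.00127), and Trem2, a lipid-sensing receptor, at 566, 659 and 699 CPM in vehicle and 125, 89.8 and 423 CPM in treated replicates 1 to 3 (log2 change of -1.59 with SE 0.31, edgeR adjusted p 0.000602). Replicate 3 lay between the vehicle libraries and the other 2 treated ones in both. Cd68 (-1.10), Stab1 (-1.29), F13a1 (-2.35) and Gpr34 (-2.68) also fell in all 3, and Cebpa (-0.96) fell with replicate 3 inside the vehicle range. The surface marker Adgre1 (F4/80) rose, at 484, 504 and 466 CPM in vehicle and 2408, 1467 and 657 CPM in treated replicates 1 to 3 (log2 change of 1.64 with SE 0.30, edgeR adjusted p 0.000293), as did Itgam (1.06), and the lineage factor Spi1 rose (0.69) with replicate 3 inside the vehicle range. Lyz2 (-0.25), C1qa (-0.36) and Cx3cr1 (-1.21) did not pass the test. The vehicle libraries were above all 30 libraries of other populations for Csf1r (1057 to 3536 CPM), Mertk (20.4 to 114) and F13a1 (1.33 to 132).

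Of 19 markers of alternative activation (M2), 10.5% were called, against 20.7% of all genes. Mrc1 (430, 393 and 343 CPM in vehicle and 113, 60.7 and 280.3 CPM in treated replicates 1 to 3, log2 fold change -1.36) and Atp6v0d2 (-1.77) fell, and none rose. Both calls were lost without treated replicate 1 or 2, and that of Atp6v0d2 also without any 1 of the vehicle libraries (highest edgeR adjusted p 0.147 and 0.207). Arg1 stood at 2.88, 1.23 and 0.271 CPM in vehicle and 5.05, 1.48 and 0 CPM in treated replicates 1 to 3 and did not pass the test (log2 change of 0.56 with SE 1.02, edgeR adjusted p 0.745). Of 26 lysosome and autophagy genes, 11 fell (against 8.57% of all tested genes), 5 of them in all 3 (against 2.28%), and 1 rose (against 12.1%). Those that fell numbered 6, 5 and 16 without treated replicates 1, 2 and 3. The cathepsin genes Ctsd (6308, 8001 and 8402 CPM in vehicle and 2858, 3174 and 5490 CPM in treated replicates 1 to 3, log2 fold change -0.98) and Ctsb (-0.91), Lamp1 (-0.60), Npc1 (-0.78) and Map1lc3b (-0.72) fell in all 3, Atp6v1h rose (0.72), and Sqstm1 (0.38) and Tfeb (-0.88) did not pass the test. Among Fc and scavenger receptors, Fcgr4 rose (2.28) and Fcgr3 fell (-1.22). Of the sensors of nucleic acids, Tlr7 fell (-1.06) in all 3, and the adaptor Myd88 rose (0.97). Of the genes of cholesterol efflux, Nr1h3, the liver X receptor, rose (1.31) and Apoc2 fell (-1.61), while Abca1 (-1.08) and Apoe (-1.43) did not pass the test.

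Cell cycle genes rose, with replicate 2 foremost. Of 30 tested, 25 rose (83.3%, against 12.1% of all tested genes), 9 of them in all 3 (against 5.15%), and none fell. The median shift was 1.00, 2.48 and 1.10 in replicates 1, 2 and 3. Ccne2, cyclin E2, stood at 2.36, 4 and 5.95 CPM in vehicle and 17.4, 60.4 and 18.5 CPM in treated replicates 1 to 3 (log2 change of 2.97 with SE 0.54, edgeR adjusted p 0.000316), Ube2c of the anaphase-promoting complex at 16.8, 17.9 and 8.38 CPM in vehicle and 58.9, 145 and 55.1 CPM in treated replicates 1 to 3 (log2 change of 2.59 with SE 0.41, edgeR adjusted p 7.46e-05), and Top2a, a topoisomerase of dividing cells, at 51.1, 57.6 and 50.9 CPM in vehicle and 118, 403 and 124 CPM in treated replicates 1 to 3 (log2 change of 2.02 with SE 0.39, edgeR adjusted p 0.00065). Replicate 2 was far above the other treated libraries in these genes, and no treated library overlapped the vehicle libraries. Without replicate 2, 9 of the 30 were called, against 27 without replicate 1 or replicate 3. The same list stood 2.94 to 3.04 above the KO_M0 vehicle mean in the WT_M0 vehicle libraries, and Ccne1, Ccne2 and Ube2c in KO_M0 vehicle were below all 30 libraries of other populations. Mcm4 (0.74), Mcm6 (1.06) and Pcna (0.37) did not pass the test.

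Most proteasome genes rose by a little. Of 31 proteasome subunit genes, 20 rose (64.5%, against 12.1% of all tested genes, and 13 without treated replicate 2) and none fell. Of the 20, 12 rose in all 3 (against 5.15%), and the list's median log2 fold change was 0.60. Psma6, the largest, stood at 87.3, 103 and 93 CPM in vehicle and 320.1, 344 and 148 CPM in treated replicates 1 to 3 (log2 change of 1.52 with SE 0.20, edgeR adjusted p 2.99e-06), and Psmc1 had replicate 3 inside the vehicle range (611, 627 and 361 CPM against 233, 257 and 373). Of 26 genes of glycolysis and hypoxia, 10 rose and 1 fell, a called share of 42.3% against 20.7% of all tested genes. Those that rose numbered 5, 6 and 12 without treated replicates 1, 2 and 3. Ndrg1 stood at 32.2, 34.8 and 24.6 CPM in vehicle and 414, 700.3 and 213 CPM in treated replicates 1 to 3 (log2 change of 3.86 with SE 0.43, edgeR adjusted p 7.67e-07), the glucose transporter gene Slc2a1 at 23.3, 15.4 and 15.4 CPM in vehicle and 55.3, 43.9 and 56.9 CPM in treated replicates 1 to 3 (log2 change of 1.52 with SE 0.24, edgeR adjusted p 2.6e-05), and Angptl4 fell (-2.65). Slc2a1 was alike in all 3 treated libraries, and its vehicle level was below all 30 other libraries (47.5 to 147 CPM). The hypoxia targets Vegfa (-1.14), Bnip3 (-0.31) and Egln3 (-0.09) did not pass the test. Of 26 nuclear genes of oxidative phosphorylation 5 rose (2 without treated replicate 2), with Cycs (1.63) and Cox5a (1.21) in all 3. This share of 19.2% stood against 12.1% of all genes called higher and 20.7% called in either direction. Of 25 sterol and fatty acid synthesis genes 7 rose (28%, against 12.1% of all tested genes), Fdps (1.33) in all 3. The number was 2, 3 and 11 without treated replicates 1, 2 and 3.

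Genes in which replicate 3 was the highest treated library were few among those that moved in all 3. They numbered 20 of 607 rises, and included Hspa1a, Hspa1b, Slc7a11, Slc2a1, Cdkn1a and Me1, an NRF2 target at 16.5, 11.4 and 8.11 CPM in vehicle and 22.2, 22.7 and 29.1 CPM in treated replicates 1 to 3. Others, chosen after their values were seen, were Tiparp, a target of the aryl hydrocarbon receptor, at 25.7, 22.2 and 30 CPM in vehicle and 46, 36.5 and 51.9 CPM in treated replicates 1 to 3 (log2 change of 0.78 with SE 0.21, edgeR adjusted p 0.00877), and Ppp1r15b, a regulator of translation initiation, at 35.6, 32.9 and 30.8 CPM in vehicle and 51.8, 47.1 and 53.7 CPM in treated replicates 1 to 3 (log2 change of 0.62 with SE 0.15, edgeR adjusted p 0.00386). For both, the 3 treated libraries lay within a narrow band above the vehicle libraries. Of 268 falls, 7 had the largest shift in replicate 3, such as Dock1 (-1.34), a Rac activator of phagocytosis.

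The rises were set beside a list made from other libraries. In WT vehicle libraries, 83 genes rose by at least 2 on the log2 scale with LPS and IFN-γ, and these libraries are not among the groups compared in KO_M0, although they share the filter and the estimate of spread of the same fit. Of the 83, 46 rose with AP-3-84 in KO_M0 (55.4%, against 12.1% of all tested genes), 28 of them in all 3 (against 5.15%), and 1 fell. Their median was 1.85, 1.90 and 0.735 above the KO_M0 vehicle mean in treated replicates 1, 2 and 3. In KO_M1 vehicle libraries, polarized with LPS and IFN-γ, it was 3.52 to 3.64, and in WT_M0 vehicle libraries 0.35 to 0.56. The 46 made up 3.22% of the 1430 rises, and with a list of 306 genes at a difference of 1 or more, 130 rises (9.09%) were in the list and 1300 outside it. Of 182 genes that rose with IL-4 and IL-13 in WT vehicle libraries, 33 fell (18.1%, against 8.57% of all tested genes) and 15 rose (8.24%, against 12.1%) in KO_M0 with AP-3-84. Their median, relative to the KO_M0 vehicle mean, was -0.569, -0.664 and -0.269 in treated replicates 1, 2 and 3. In the unpolarized WT_M0 vehicle libraries, which also served to make the list, it was -0.834, -0.514 and -0.723. The treated level was thus not below that of unpolarized WT cells as a group.

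**Figure D5:**
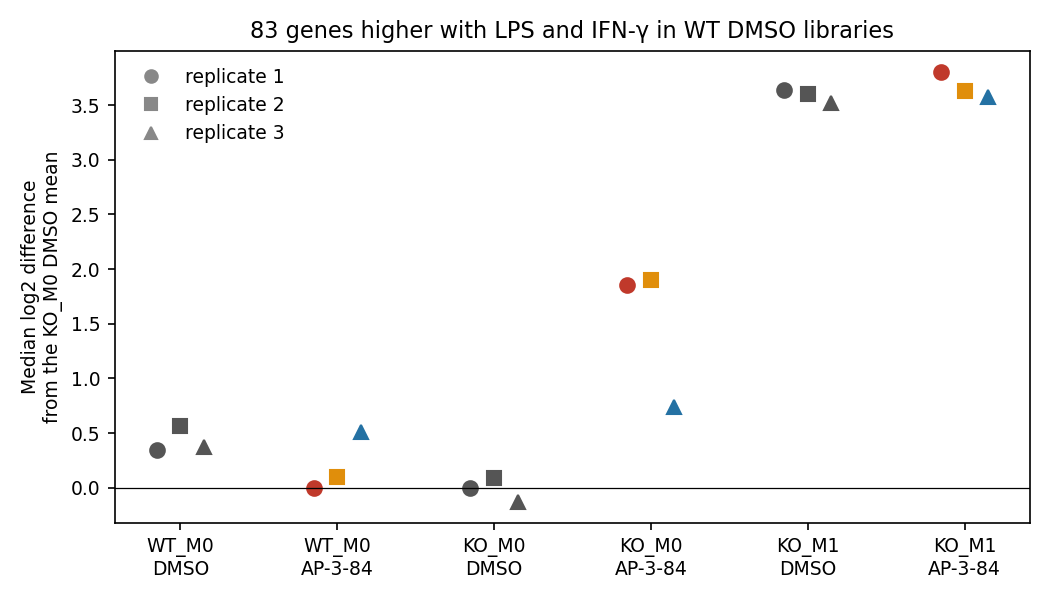
Median log2 difference from the KO_M0 vehicle mean of 83 genes that LPS and IFN-γ raised in WT vehicle libraries, for each library (symbols for replicates 1 to 3, grey for vehicle) of 6 groups. KO_M0 treated replicates 1 and 2 (1.85 and 1.90) lie between the unpolarized vehicle libraries and the KO_M1 libraries (3.52 to 3.80), and replicate 3 (0.735) lies just above the unpolarized range.

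The response was compared with that of WT_M0 by a test of the difference. AP-3-84 changed 17 genes in WT_M0, and the KO minus WT difference was called for 2002 genes (17% of those tested), 1179 positive and 823 negative. The count was 1013 without KO_M0 treated replicate 2, 3121 without KO_M0 treated replicate 3 and 1221 without WT_M0 treated replicate 1. Of the 875 genes that moved in all 3 libraries of KO_M0, 776 (88.7%) had a called difference, of the 305 with replicate 3 inside the vehicle range 156, and 389 called differences were in genes not called in KO_M0. Cd300e stood at 24.2, 32.7 and 28.6 CPM in WT_M0 vehicle and 9.75, 13.6 and 21.5 CPM in WT_M0 treated libraries, and its responses differed by 7.58 (SE 0.65, edgeR adjusted p 1.45e-08). Spn (CD43, a surface sialoglycoprotein) stood at 12.8, 17.2 and 9.2 CPM in vehicle and 419.9, 442 and 104 CPM in treated replicates 1 to 3 of KO_M0, and at 92.9, 147 and 152 and 84, 98.6 and 132 CPM in vehicle and treated libraries of WT_M0. The difference was 4.94 (SE 0.53, edgeR adjusted p 1.13e-06). For Spn, the KO_M0 vehicle libraries were below all 30 libraries of other populations. Hlx, a homeobox gene, moved in opposite directions, from 55.8, 60 and 72 to 27.5, 23.7 and 45.8 CPM in KO_M0 and from 26.2, 31.5 and 26.6 to 61.2, 61.6 and 47.7 CPM in WT_M0 (difference -1.97, SE 0.27, edgeR adjusted p 1.18e-05). Man1c1, Tbc1d4 and Tmem87b had called negative differences and Slamf9 and Zfp811 positive ones.

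For Hspa1a and Slc7a11 no difference between KO and WT was called. Hspa1a rose in WT_M0 too, from 1.12, 1.43 and 2.04 to 31, 14.9 and 21 CPM, and the difference of the responses was 0.76 (SE 0.90, edgeR adjusted p 0.602), which leaves room for a difference of either sign. For Slc7a11 it was 0.23 (SE 0.70, edgeR adjusted p 0.857), with 39.7, 53.8 and 49.3 CPM in WT_M0 vehicle and 192, 174 and 200.3 CPM in treated libraries. Over all 11779 tested genes, 1179 had a called positive difference and 823 a called negative one, together 17%. Of 23 NRF2 targets, 5 had a called difference, all negative. The difference was called and positive for 9 of 18 heat shock genes, for 23 of 35 interferon-stimulated genes, whose WT_M0 responses had a median of -0.55, for 25 of 30 cell cycle genes (WT_M0 median -0.41), for 20 of 31 proteasome genes and for 12 of 24 genes of the integrated stress response (WT_M0 median 0.03).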

How the data were processed

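The authors deposited 1 table of raw read counts per gene for the 48 libraries. RSEM, Bowtie2 and DESeq2 are named without version or role in the submitters' processing notes, so the deposited whole counts may be rounded estimates, while build, annotation and any UMI step were not given in the sources here. Of 51789 gene IDs, 51596 matched a symbol in GENCODE M21 (GRCm38) and 193 did not. Coordinates come from that annotation.

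Counts were analysed with edgeR 4.0.16 in R 4.3.3. Genes were kept by filterByExpr (11779), scaled with TMM factors, and fitted with the robust quasi-likelihood test over the 36 bone marrow-derived libraries, which share 1 estimate of spread, with 1 coefficient per group. P-values were adjusted by Benjamini-Hochberg over all tested genes, at 0.05. The KO minus WT difference was a contrast of the same fit. Shifts used log2(CPM + 0.5) against the vehicle mean. A called gene moved in all 3 libraries if all treated libraries lay on its side of all vehicle libraries and it was called with each treated library left out. Named genes had a mean log2 CPM of at least 3 and were, in the class that moved in all 3, the 10 rises and 8 falls whose least-shifted treated library moved most, with replicate 3 inside the vehicle range the 8 rises and 6 falls of largest fold, the 4 lowest p in each direction of the KO minus WT difference, and up to 3 called genes of largest fold per list. A fixed set of 18 genes (such as Trp53, Cdkn1a, Nos2 and Arg1) was always named. Other list members, among them all those that did not pass the test, are examples chosen after their values were seen. The members, the 28 gene lists and the marker lists were chosen with earlier results of these data known.

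Alternatives were DESeq2 1.42.0, other scalings, no filter, other sets of libraries, a fold threshold, the replicate number as a block and each library left out. Replicate numbers do not pair the libraries (r of their deviations -0.0322, 0.0228 and -0.0642). The script was tested on simulated data. Promoter windows came from RefSeq. Results of some list members are not reported here.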

Additional observations from a re-analysis of the deposited data

Results flagged for a closer look

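The responses of unpolarized KO and WT macrophages to AP-3-84 differed by a test of the difference itself (edgeR, adjusted over all tested genes) in 2002 genes (1013 without KO_M0 treated replicate 2 and 3121 without KO_M0 treated replicate 3). The genes below were taken from the named genes. Values are the KO minus WT difference of the log2 fold changes, positive where the KO response was the higher.

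Among genes of surface receptors and transporters, the differences were 9.41 for Slc13a3, 7.58 for Cd300e, 7.16 for Slamf9, 6.99 for Marco and 4.94 for Spn. That of the zinc finger gene Zfp811 was 8.91, from 1 vehicle count in KO, and is a fitted value with no bound. Inflammatory and interferon genes differed by 4.37 for Cxcl10, 3.91 for Acod1, 3.78 for Isg15 and 3.53 for Ifit1. The stress gene Gdf15 differed by 1.74 and Cdkn1a, the target of p53, by 1.59.

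Negative differences were -2.93 for Tbc1d4, -1.97 for Hlx, -1.78 for Tmem87b, -1.74 for Csf1r, -1.70 for Man1c1 and -1.63 for Mrc1. In the KO_M0 vehicle group, 1208 genes lay outside the libraries of all other populations, and the part of that group in these differences was not tested.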

How the results depend on the processing

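When only the 6 libraries were fitted, 704 genes were called (502 higher, 202 lower), with 97 in the class that moved in all 3 and 0 with replicate 3 inside the vehicle range, where 2914 genes had an unadjusted edgeR p under 0.05. With all 48 libraries fitted together, 532 had replicate 3 inside. A log2 fold change of at least 1 left 1218 calls (697 higher, 521 lower), 453 in all 3 and 86 with replicate 3 inside. The replicate block gave 2105 calls and 401 in all 3. The numbers do not pair the libraries, since the correlations of their deviations were -0.0322, 0.0228 and -0.0642. Treated replicate 3 alone against vehicle gave 67 calls, 67 higher and 0 lower (1072 at an unadjusted p under 0.05, edgeR, spread taken from the other groups). The reference list held 306 genes at a difference of 1. DESeq2 called 2640.

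Leaving out 1 library gave 1074 to 3597 calls, 747 to 1903 higher and 327 to 1694 lower, with 544 to 676 in all 3 and 67 to 87 with replicate 3 inside when a vehicle library was left out, and 1013 to 3121 for the KO minus WT difference. The lowest counts came without treated replicate 2 and the highest without treated replicate 3. The KO minus WT count was also 1221 without WT_M0 treated replicate 1. Of 114 called named genes, 61 kept their call in all 14 alternatives, 53 lost it in 1 or more, 12 of them only where a library was left out.

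Genes that were not called changed sign. Trp53 ranged from -0.21 to 0.50 over left-out libraries, with -0.11 and -0.06 without vehicle replicates 1 and 2, and was -0.67 with treated replicate 2 alone. Arg1 ranged from -0.92 to 1.57 and was -5.51 with treated replicate 3 alone, where Nos2 was 0. The called Srxn1 was -0.0345 with treated replicate 2 alone. The cause of these changes was not tested. Totals of 3081707 to 4133693 counts leave genes of a few CPM with few counts, and 3 libraries a group limit the precision of each.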

Other observations

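Other genes rose above every library of the other 5 populations in all 3 treated libraries, and were chosen after their values were seen. Morc4, of a family of chromatin-associated ATPases, stood at 3.14, 0.616 and 0.541 CPM in vehicle and 50.0, 101.9 and 18.0 CPM in treated replicates 1 to 3, against 0.302 to 12.6 CPM in the 30 other libraries. Ccdc50 stood at 108.0, 85.3 and 96.3 CPM in vehicle and 394, 352 and 204 CPM in treated libraries, against 69.2 to 193.5 CPM. Suco stood at 26.2, 28.0 and 29.5 CPM in vehicle and 119.0, 97.9 and 67.5 CPM in treated libraries, against 17.0 to 59.8 CPM. In each, replicate 3 was the lowest treated library and the groups did not overlap.

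Among genes that moved in all 3, Prkar2b, a regulatory subunit of protein kinase A, was highest in replicate 3, at 77.8, 52.3 and 82.1 CPM in treated replicates 1 to 3 and 38.0, 38.5 and 34.4 CPM in vehicle. Plpp1, a lipid phosphatase, had the same leader, at 5.56, 6.41 and 8.47 CPM in treated and 1.83, 2.46 and 1.35 CPM in vehicle libraries.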
